A study of Mus musculus with 12 samples.

Results

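Messenger RNA of 9 genes through which noradrenaline and acetylcholine act on heart muscle was measured in cardiomyocytes of mice with and without desmin. The genes were the receptors Adrb1, Adra1a, Adra1b and Chrm2, the stimulatory G protein subunit Gnas, the adenylyl cyclases Adcy5 and Adcy6, and the phosphodiesterases Pde3a and Pde4d. They were taken by symbol, and all 9 were present once among the 21493 genes listed for every library. All 9 passed the filter on low counts, which 13158 genes passed.

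Adult cardiomyocytes were isolated by enzymatic perfusion of the heart from mice aged 3 months, and poly-A RNA was sequenced. The mice had an intact desmin gene (Des+/+) or were desmin null (Des-/-), and had been exposed to swimming exercise as a stress (swim) or had not (non-swim), which gave 4 groups of 3 libraries and 12 libraries in all. Desmin is the intermediate filament protein of muscle. In the study's methods, Des+/+ and Des-/- are short names for mice on a 129SV background that also carry GFP under the αMHC (Myh6) promoter in both genotypes. The methods do not say separately whether the swum animals carried it. Every library was a pool of cells from several mice, so replicate error here is error between pools.

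Noradrenaline from sympathetic nerves binds β1 adrenergic receptors on the cardiomyocyte, and Gαs then activates adenylyl cyclase, which makes cyclic AMP. Cyclic AMP activates protein kinase A, whose targets quicken and strengthen the beat, and phosphodiesterases break cyclic AMP down. Acetylcholine from the vagus nerve acts on M2 muscarinic receptors, which inhibit adenylyl cyclase through Gαi and open potassium channels through Gβγ. The α1 receptors couple to Gq and phospholipase C instead.

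The promoter windows of the genes whose levels are described were read from RefSeq (GRCm38.p6), as the 250 bases before the transcription start. Windows were found for 6 of the 9 genes, 10 in all, and none was found for Adra1a, Adcy6 and Pde3a. The sequences of 4 genes that were lower in Des-/- non-swim libraries are given here beside that of Gnas, which did not pass the test, so that both kinds can be compared. Each runs 5′ to 3′ on the gene's own strand, and capitals mark the GC box, a binding motif of Sp1-type factors, searched as GGGCGG on both strands (CCGCCC on the other).
Adrb1 (chr19:56721867-56722116, plus strand): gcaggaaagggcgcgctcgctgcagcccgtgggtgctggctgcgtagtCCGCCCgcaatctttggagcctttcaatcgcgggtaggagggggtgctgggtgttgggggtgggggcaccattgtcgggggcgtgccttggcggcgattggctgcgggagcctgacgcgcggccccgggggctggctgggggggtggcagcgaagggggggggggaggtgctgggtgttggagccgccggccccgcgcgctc
Adra1b (chr11:43836490-43836739, minus strand): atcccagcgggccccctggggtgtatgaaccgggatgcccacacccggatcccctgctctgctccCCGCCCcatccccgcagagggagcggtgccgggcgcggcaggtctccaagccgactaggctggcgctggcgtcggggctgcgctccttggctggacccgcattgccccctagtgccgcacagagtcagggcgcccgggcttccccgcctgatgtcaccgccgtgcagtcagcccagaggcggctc
Chrm2 (chr6:36387834-36388083, plus strand): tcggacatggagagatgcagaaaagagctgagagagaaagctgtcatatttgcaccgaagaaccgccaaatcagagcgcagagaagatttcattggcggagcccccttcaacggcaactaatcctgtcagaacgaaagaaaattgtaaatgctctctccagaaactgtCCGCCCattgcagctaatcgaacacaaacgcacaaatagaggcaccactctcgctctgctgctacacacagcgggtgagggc
Adcy5 (chr16:35154614-35154863, plus strand): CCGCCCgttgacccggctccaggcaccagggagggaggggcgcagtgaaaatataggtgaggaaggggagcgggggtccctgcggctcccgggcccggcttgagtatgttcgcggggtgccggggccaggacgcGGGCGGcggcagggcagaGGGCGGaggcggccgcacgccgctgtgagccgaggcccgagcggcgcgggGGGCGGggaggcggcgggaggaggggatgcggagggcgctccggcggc
Gnas (chr2:174329756-174330005, plus strand): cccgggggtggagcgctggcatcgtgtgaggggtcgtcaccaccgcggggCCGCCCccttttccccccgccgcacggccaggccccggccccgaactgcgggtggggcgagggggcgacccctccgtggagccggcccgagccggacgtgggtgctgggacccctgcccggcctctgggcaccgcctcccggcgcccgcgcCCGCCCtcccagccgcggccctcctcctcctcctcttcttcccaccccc

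The Adcy5 window held 4 GC boxes and was 78% G and C. The printed Gnas window held 2 and was 80.0% G and C. The windows of Adrb1 (74.0% G and C), Adra1b (72.8%) and Chrm2 (50%) held 1 GC box each. Among all 32851 RefSeq windows of this length, 32.7% held a GC box. The motif was therefore present in the printed windows of genes that were lower and in that of Gnas. Of the further Gnas windows, the one from position 174284070 held 1 GC box. Those from 174327499 and 174327518, which overlap each other, held 0, so the comparison depends on the window printed. The other Adra1b window, at a start further upstream, was 41.6% G and C and held none, as did the Pde4d window. The full cyclic AMP response element, searched as TGACG directly followed by TCA, which reads alike on both strands, was found in none of the 10 windows and in 1.55% of all windows. Its core alone, TGACG or CGTCA, was found in 17.8% of all windows, and in those of Adrb1, 90 bases before the start, and Gnas, in 3 of the 4 Gnas windows. In the overlapping Gnas windows the match is the same site, seen in both. These matches describe letters in the sequence and say nothing of binding.

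Assigned reads per library ranged from 4320819 to 12072443, and 3 counts, taken as the floor of detection, corresponded to 0.262 to 0.656 CPM, a count divided by the scaled total of its library. Des itself, the targeted gene, averaged 2367 CPM (SD 1137, n = 3) in the Des+/+ and 59.5 CPM (SD 11.3, n = 3) in the Des-/- libraries without swimming, and its libraries of the genotypes did not overlap. The defining cardiomyocyte genes (10, among them Myh6, Tnnt2 and Actn2) were detected in every group, but their summed level was 57354 to 93334 CPM in Des+/+ non-swim, 30880 to 51855 in Des+/+ swim, 7329 to 27514 in Des-/- non-swim and 18275 to 29168 in Des-/- swim libraries. All 10 fell in Des-/- against Des+/+ libraries without swimming (edgeR adjusted p under 0.05, median log2 change -1.94), and after swimming 0 of 10 passed the test (median -0.57). Of other lists, 12 of 12 fibroblast, 9 of 11 macrophage, 4 of 5 tested lymphocyte and 9 of 10 genes listed as a response to cell isolation rose in Des-/- without swimming, against 3, 0, 0 and 6 after it. The last list holds Fos, Fosb, Jun, Junb, Egr1, Ier2, Atf3, Hspa1a, Hspa1b and Nr4a1. Its name is a label given to the list, and what raised these genes was not tested. No endothelial gene passed the test without swimming and 1 rose after it, and 1 of 9 mural genes fell without swimming. Of 5 atrial genes tested, 1 fell without swimming and 1 rose after it. Of 6 nerve and glia genes tested, 1 fell without swimming and 0 changed after it, and Chat was at 0 in all libraries of every group. Des-/- non-swim replicate 3 stood apart, with the lowest cardiomyocyte sum (7329 CPM) and the highest fibroblast (41375 CPM) and macrophage (4544 CPM) sums, and Des-/- swim replicate 3 had the highest of these sums among the swim libraries (14763 and 1481 CPM). Reads not assigned to a gene made up 53.5% to 59.5% of Des+/+ non-swim, 63.6% to 68.4% of Des+/+ swim, 52.4% to 68.3% of Des-/- non-swim and 72.3% to 78.8% of Des-/- swim libraries, and so lay higher in the swim than in the non-swim libraries of each genotype. The part of this share in the results was not tested. In such bulk samples, fewer cells of a type and less RNA per cell cannot be told apart.

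Without swimming, 6 of the 9 genes were lower in Des-/- libraries at an edgeR adjusted p under 0.05 (quasi-likelihood test, Benjamini-Hochberg over all genes tested), when libraries were scaled on all genes. These were the 4 receptors, Adcy5 and Pde3a, with falls of 2.59-fold to 11.8-fold. No member was higher. Among all genes tested 18.0% were lower by the same rule, 14.0% were higher and 32.0% changed in either direction. The libraries of the genotypes did not overlap for 7 members (these 6 and Gnas), as for 24.9% of all genes in that direction. The median log2 change of the members was -1.74 beside 0.04 over all genes. When libraries were scaled instead on the 10 cardiomyocyte genes, only Adra1b remained lower at that threshold, and Adrb1, Adra1a, Adcy5, Adcy6, Gnas, Pde3a and Pde4d had positive log2 changes. With that scaling 91.1% of all genes tested were called without swimming, 99.7% of these higher. After swimming, 2 members were lower (Adra1a and Adra1b), where 5.57% of all genes were lower and 10.6% changed in either direction, and neither passed under scaling on the cardiomyocyte genes, where 4 genes in all (0.0304%) did. Both were thus lower in both genotype comparisons, as were 4.01% of all genes. For 5 members the swim libraries of the genotypes did not overlap, as for 18.6% of all genes in that direction.

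**Figure D1:**
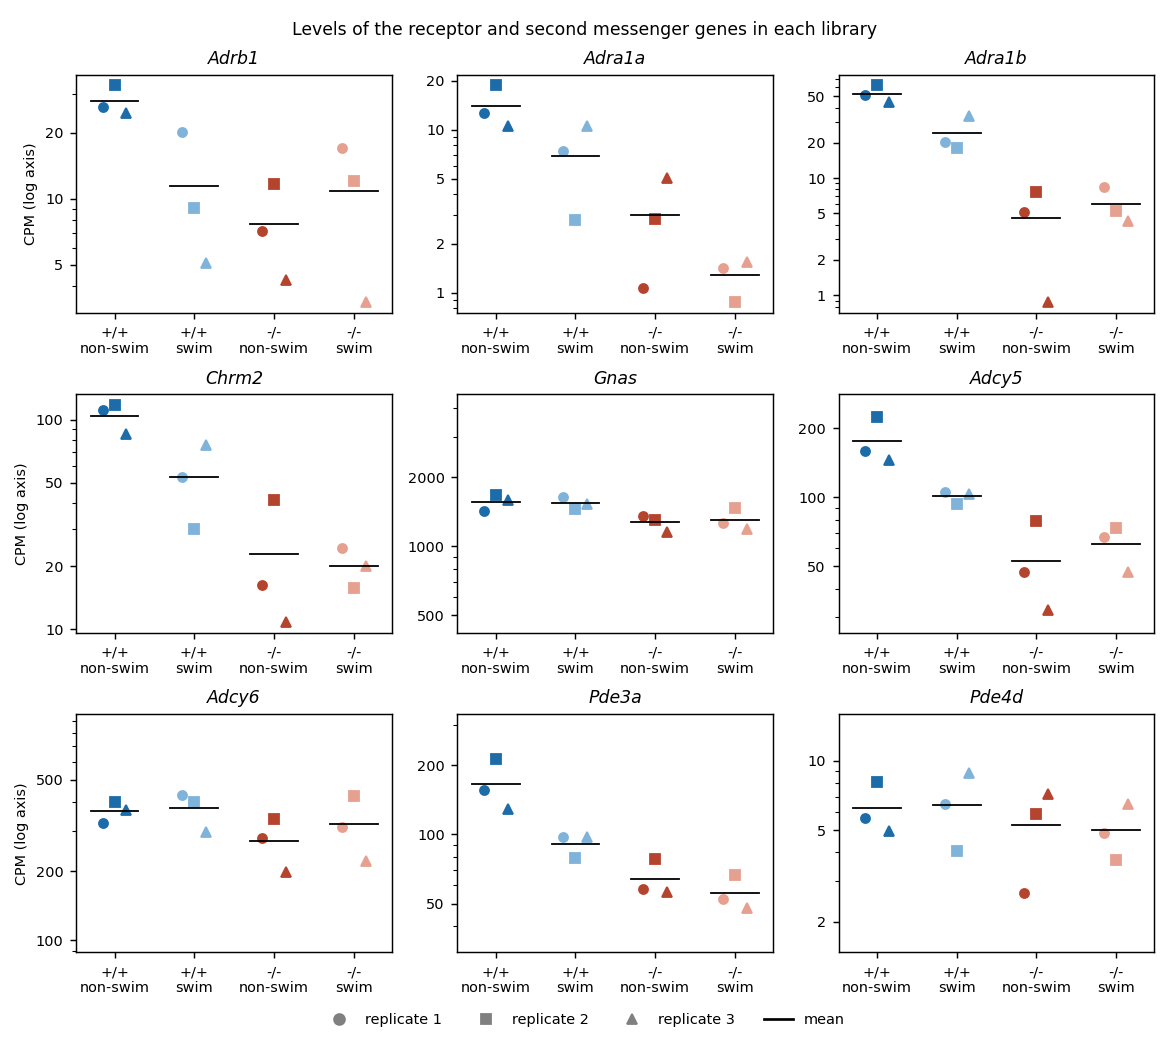
Level of each gene in CPM (vertical log axis, a range of its own per panel) in the 12 libraries, by group; each symbol is a replicate and each bar a group mean of 3. Adra1b and Adcy5 lie higher in every Des+/+ than in every Des-/- library on this scale (the sign of the Adcy5 change without swimming turns when libraries are scaled on cardiomyocyte genes), whereas the groups overlap for Adcy6 and Pde4d.

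Adrb1 (ENSMUSG00000035283, GRCm38 chromosome 19, 56722199 to 56733113, plus strand) encodes the β1 adrenergic receptor, the main β receptor of the working heart. It was at 26.3, 32.8 and 24.6 CPM in Des+/+ non-swim replicates 1, 2 and 3, and at 7.12, 11.7 and 4.29 CPM in Des-/- non-swim libraries. After swimming the Des+/+ libraries held 20.1, 9.10 and 5.12 CPM and the Des-/- libraries 17.1, 12.03 and 3.39 CPM. The Des+/+ non-swim libraries thus lay above all 9 others, and the other 3 groups overlapped with one another. The log2 change between genotypes was -1.87 without swimming (SE 0.58, adjusted p 0.0293, 95% interval -3.13 to -0.60). After swimming it was -0.08 (SE 0.58, adjusted p 0.935), with an interval from -1.34 to 1.18. The call without swimming was lost when any of 5 of the 6 libraries compared was left out (adjusted p up to 0.0868), the exception being Des-/- non-swim replicate 2.

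Adra1b (ENSMUSG00000050541, chromosome 11, 43774606 to 43901210, minus strand) and Adra1a (ENSMUSG00000045875, chromosome 14, 66635251 to 66771168, plus strand) encode the α1B and α1A adrenergic receptors. Adra1b showed the largest fall of the 9 genes without swimming. It was at 51.0, 61.8 and 44.6 CPM in Des+/+ non-swim libraries and at 5.10, 7.59 and 0.875 CPM in Des-/- non-swim libraries. In the swim libraries it was at 20.2, 18.2 and 34.0 CPM in Des+/+ and at 8.39, 5.25 and 4.31 CPM in Des-/- hearts. Every Des+/+ library lay above every Des-/- library. The lowest value, in Des-/- non-swim replicate 3, rested on 10 reads.

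The log2 change of Adra1b was -3.56 (SE 0.55, adjusted p 0.00122), an 11.8-fold lower level, without swimming. It was -4.17 when Des-/- non-swim replicate 2 was left out and -3.04 when replicate 3 was. After swimming it was -1.99 (SE 0.54, adjusted p 0.0384), and that call was lost in 10 of 12 fits that each left out 1 library (adjusted p 0.00633 to 0.132), being kept only without Des-/- non-swim replicate 2 or 3. Scaled on the cardiomyocyte genes, its change without swimming was -1.69 (adjusted p 0.00368) and after swimming -1.40 (adjusted p 0.151).

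Adra1a was at 12.7, 18.7 and 10.5 CPM in Des+/+ non-swim libraries and at 1.06, 2.83 and 5.07 CPM in Des-/- non-swim libraries. With swimming it was at 7.44, 2.78 and 10.5 CPM in Des+/+ and at 1.42, 0.875 and 1.54 CPM in Des-/- libraries, the last 3 of which held only 4 to 10 reads each. The genotypes did not overlap in either condition. The log2 change was -2.21 without swimming (SE 0.56, adjusted p 0.0121). With 1 library left out, it ranged from -2.84 (without Des-/- non-swim replicate 3) to -1.81 (without Des-/- non-swim replicate 1). The edgeR adjusted p was then at most 0.0481. After swimming the log2 change was -2.39 (SE 0.62, adjusted p 0.0337), a 5.23-fold lower level. This second call was lost without Des+/+ swim replicate 1 or 3 or any of the 3 Des-/- swim libraries (adjusted p up to 0.119). With scaling on the cardiomyocyte genes the changes were 0.37 (adjusted p 0.624) and -1.65 (adjusted p 0.225).

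Chrm2 (ENSMUSG00000045613, chromosome 6, 36388084 to 36528414, plus strand) encodes the M2 muscarinic receptor, which slows the heart. Its level was 111.0, 117 and 85.8 CPM in Des+/+ non-swim libraries and 16.3, 41.3 and 10.8 CPM in Des-/- non-swim libraries. In swim libraries it was 53.3, 30.2 and 76.0 CPM in Des+/+ and 24.5, 15.7 and 20.01 CPM in Des-/- samples. The genotypes were separate in both conditions, and the Des+/+ swim and Des-/- non-swim libraries overlapped. The fall without swimming was 4.61-fold (log2 change -2.20, SE 0.45, adjusted p 0.00433). With 1 library left out, the log2 change ranged from -2.95 (without Des-/- non-swim replicate 2) to -1.86 (without Des-/- non-swim replicate 3). The edgeR adjusted p was then at most 0.0181. After swimming the log2 change was -1.39 (SE 0.45), with an adjusted p of 0.0671. DESeq2 gave an adjusted p of 0.0179 for the latter, and a fit restricted to the 6 swim libraries gave 0.0442. Relative to the cardiomyocyte genes, the changes were -0.26 (adjusted p 0.557) and -0.70 (adjusted p 0.326).

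**Figure D2:**
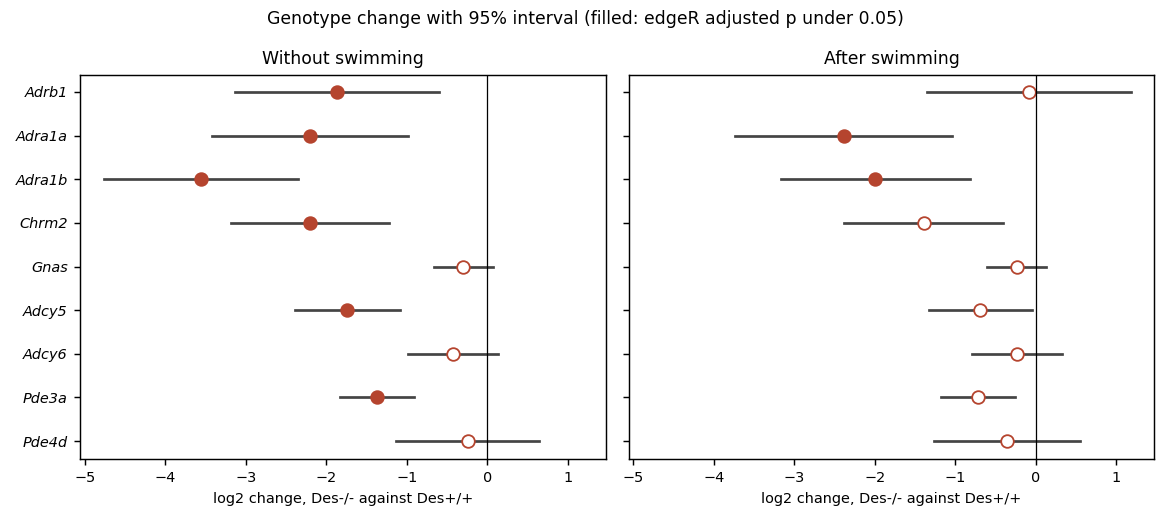
Log2 change of each gene in Des-/- against Des+/+ libraries without (left) and after swimming (right), with libraries scaled on all genes; lines are 95% intervals of the edgeR fit and filled points have an adjusted p under 0.05. The 6 filled points on the left lie between -3.56 and -1.37 and the 2 on the right at -2.39 and -1.99; scaled on cardiomyocyte genes, only Adra1b keeps its call on the left, and none does on the right.

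Gnas (ENSMUSG00000027523, chromosome 2, 174284320 to 174346744, plus strand) encodes Gαs, which links β receptors to adenylyl cyclase. It was at 1420, 1674 and 1593 CPM in Des+/+ non-swim and at 1357, 1304 and 1152 CPM in Des-/- non-swim libraries. Swim libraries held 1633, 1458 and 1528 CPM in Des+/+ and 1262, 1466 and 1190 CPM in Des-/- groups. The genotypes were separate without swimming by a small margin and overlapped after it. The log2 change was -0.30 without swimming (SE 0.17, adjusted p 0.196, 95% interval -0.67 to 0.07), and with it -0.24 (SE 0.17, adjusted p 0.362). The locus is imprinted and has 24 annotated transcripts, which a count per gene does not separate.

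Adcy5 (ENSMUSG00000022840, chromosome 16, 35154877 to 35305738, plus strand) and Adcy6 (ENSMUSG00000022994, chromosome 15, 98589973 to 98610076, minus strand) encode the principal adenylyl cyclases of the cardiomyocyte, both of which Gαi can inhibit. Adcy5 was at 159, 224 and 146 CPM in Des+/+ non-swim libraries and at 47.3, 79.0 and 32.3 CPM in Des-/- non-swim libraries. With swimming it was at 106, 93.4 and 103 CPM in Des+/+ and at 67.1, 73.7 and 47.4 CPM in Des-/- libraries. No Des-/- library reached the level of any Des+/+ library. The log2 change was -1.74 without swimming (SE 0.30, adjusted p 0.00179), and with it -0.69 (SE 0.29, adjusted p 0.138). When scaled on the cardiomyocyte genes these were 0.36 (adjusted p 0.344) and -0.09 (adjusted p 0.872).

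Adcy6 was at 323, 400 and 371 CPM in Des+/+ non-swim and at 279, 336 and 199 CPM in Des-/- non-swim libraries. Swim libraries held 429, 400 and 297 CPM in Des+/+ and 312, 426 and 221 CPM in Des-/- groups. The 4 groups overlapped. The log2 change was -0.43 without swimming (SE 0.26, adjusted p 0.223, 95% interval -0.99 to 0.13), and with it -0.23 (SE 0.26, adjusted p 0.568).

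The count of Adcy5 relative to that of Adcy6 in the same library needs no scaling, and the pair was chosen after the values had been seen, so it is given as a description without a test. The ratio was 0.393 to 0.559 in Des+/+ non-swim, 0.234 to 0.348 in Des+/+ swim, 0.162 to 0.235 in Des-/- non-swim and 0.173 to 0.215 in Des-/- swim libraries. Des+/+ non-swim libraries were above all the others, and Des+/+ swim libraries overlapped with Des-/- non-swim libraries at the lowest and highest value. The summed cardiomyocyte genes were likewise highest in the 3 Des+/+ non-swim libraries, and their part in the ratio was not tested.

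**Figure D3:**
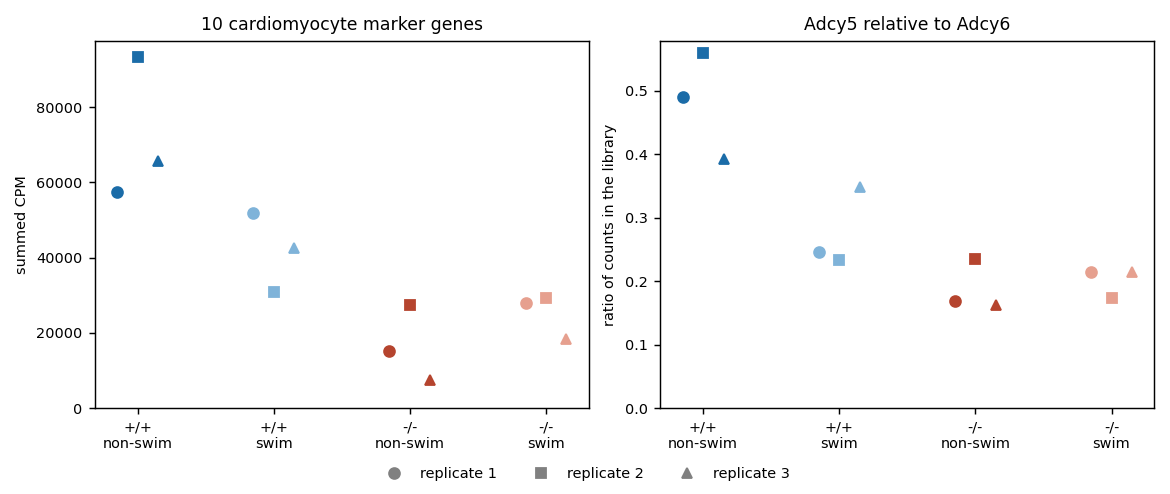
Left, summed CPM of 10 cardiomyocyte genes in each library; right, count of Adcy5 divided by count of Adcy6 in the same library; both axes start at 0 and symbols are replicates. Des+/+ non-swim libraries are highest in both panels (57354 to 93334 CPM, and ratios of 0.393 to 0.559).

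Pde3a (ENSMUSG00000041741, chromosome 6, 141249269 to 141507448, plus strand) encodes a phosphodiesterase that cyclic GMP inhibits. Its level was 155, 213 and 129 CPM in Des+/+ non-swim libraries and 57.7, 78.0 and 56.2 CPM in Des-/- non-swim libraries. In swim libraries it was 97.2, 78.8 and 97.5 CPM in Des+/+ and 52.2, 66.7 and 47.9 CPM in Des-/- samples. Every Des+/+ library was above every Des-/- library, the nearest being 78.8 and 78.0 CPM. The log2 change was -1.37 (SE 0.21, adjusted p 0.00122) without swimming. It was -0.72 (SE 0.21, adjusted p 0.0510) after swimming, where DESeq2 gave an adjusted p of 0.0207, a fit with a replicate block 0.0370 and a fit restricted to the 6 swim libraries 0.0448. With the cardiomyocyte genes as the scale, Pde3a was higher in Des-/- libraries without swimming (log2 change 0.89, adjusted p 0.0466) and its change after swimming was -0.09 (adjusted p 0.888).

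Pde4d (ENSMUSG00000021699, chromosome 13, 108449948 to 109953461, plus strand) encodes a cyclic AMP-specific phosphodiesterase with many isoforms. It was at 5.66, 8.06 and 4.96 CPM in Des+/+ non-swim and at 2.66, 5.89 and 7.17 CPM in Des-/- non-swim libraries. Swim libraries held 6.50, 4.07 and 8.82 CPM in Des+/+ and 4.83, 3.72 and 6.47 CPM in Des-/- groups. All groups overlapped. The log2 change of -0.24 without swimming had a 95% interval from -1.13 to 0.65 (adjusted p 0.679), and that of -0.35 after swimming one from -1.26 to 0.56 (adjusted p 0.592), so a change of 1 on the log2 scale was within both intervals. Its count was 17 to 82 reads per library.

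Levels per kilobase of exon, for a rough comparison of genes, had the order Gnas, Adcy6, Adcy5, Chrm2, Adra1b, Pde3a, Adrb1, Adra1a and Pde4d in Des+/+ non-swim libraries, from 139.65 to 0.519 CPM per kilobase. The length covers the exons of all annotated transcripts, 20 for Pde4d and 24 for Gnas. It can exceed that of the transcripts present, which lowers the value, so the order depends on the annotation. Adcy6 (47.7 to 59.0) was above Adcy5 (20.3 to 31.2) and Adcy5 above Chrm2 (14.2 to 19.4) in every library. Chrm2, Adra1b (13.2 to 18.3) and Pde3a (10.1 to 16.7) overlapped, as neighbours in this order. Adrb1 (7.28 to 9.71) and Adra1a (1.20 to 2.14) were separate from their neighbours. In Des-/- non-swim libraries Adra1b was at 1.34 CPM per kilobase on average, below Adrb1 at 2.27 and Pde3a at 5.02, and the ranges of Adra1b (0.259 to 2.24) and Adrb1 (1.27 to 3.45) overlapped.

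When genotype was compared over all 12 libraries within swimming condition, by an exact two-sided permutation test over 400 arrangements, p was 0.005 for Adra1a, Adra1b, Adcy5, Chrm2 and Pde3a, the smallest that the design can give. For each of these genes the genotypes did not overlap in either condition. That separation alone gives this p, which therefore restates it. The arrangements treat all libraries as independent and take no account of the correlation between Des-/- non-swim and Des-/- swim libraries of the same number. Exact p was 0.01 for Gnas, 0.095 for Adrb1, 0.105 for Adcy6 and 0.3 for Pde4d, with log2 differences of -0.27, -1.03, -0.36 and -0.32. These are 9 tests with unadjusted p, and 0.005 becomes 0.009 by Benjamini-Hochberg adjustment over the 9 genes. The share of all genes that would reach such values was not computed. Libraries of the genotypes did not overlap, with lower levels in Des-/-, for 24.9% of all genes without and 18.6% after swimming. All 6 Des-/- libraries also had a lower cardiomyocyte sum than all 6 Des+/+ libraries. With 3 against 3 libraries, an exact p cannot fall below 0.1.

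The scaling on cardiomyocyte genes moved the median log2 change of all genes from 0.04 to 2.34 without swimming and from 0.02 to 0.65 after swimming. Relative to that median, every member stayed negative in both genotype comparisons. A scaling shifts all genes of a library alike, so this distance hardly depends on the scaling. The 2 distances of a gene are therefore a description and no check of its fall. Adra1b lay 3.60 below the median of all genes on the log2 scale with the usual scaling and 4.03 below it with the other, without swimming. For Adrb1 the distances were 1.90 and 2.15, for Adra1a 2.24 and 1.98, for Chrm2 2.24 and 2.60, for Adcy5 1.78 and 1.98, and for Pde3a 1.41 and 1.45. Gnas lay 0.336 and 0.348, Adcy6 0.465 and 0.581 and Pde4d 0.282 and 0.130 below the median. The sign relative to the cardiomyocyte genes thus differed from the sign relative to all genes for 7 of the 9 genes, Adra1b and Chrm2 being the exceptions.

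**Figure D4:**
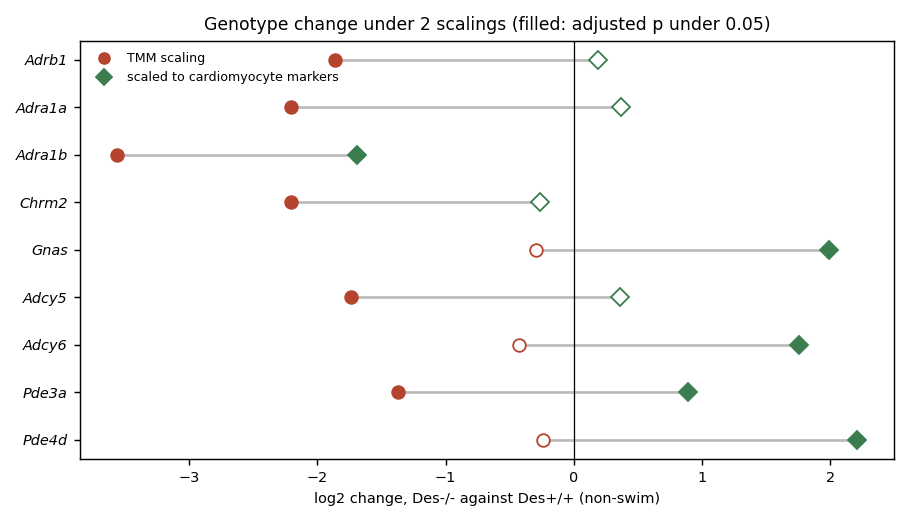
Log2 change of each gene in Des-/- against Des+/+ non-swim libraries with libraries scaled on all genes by TMM (circles) or on 10 cardiomyocyte genes (diamonds); filled symbols have an adjusted p under 0.05. Adra1b is lower under both scalings (-3.56 and -1.69), whereas 7 genes lie below 0 with the first and above 0 with the second, of which Gnas, Adcy6, Pde3a and Pde4d are filled there, where 91.1% of all genes are called, 99.7% of them higher.

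Swimming was compared next within each genotype. In Des+/+ libraries, no member passed the test (0 of 9; 0.0912% of all genes did, all higher). At an unadjusted p under 0.05 there were 5 members, all with lower levels after swimming (Adrb1, Adra1b, Adcy5, Chrm2 and Pde3a), beside 20.5% of all genes in either direction. DESeq2 called 1, Pde3a, where it called 3.68% of all genes listed. The largest log2 change was that of Adrb1, -1.28 (SE 0.57, edgeR adjusted p 0.232), and the smallest p that of Pde3a, with a log2 change of -0.86 (SE 0.21, edgeR adjusted p 0.0874, DESeq2 adjusted p 0.00891). The same 5 genes had no overlap between the groups' libraries, as had 18.7% of all genes in that direction. The 10 cardiomyocyte genes all had negative changes here too (median -0.71, 0 of 10 called), and their part in these values was not tested.

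Without the 2 Des-/- replicate 3 libraries, a setting chosen after the data were seen, 2 members were called in Des+/+ mice after swimming, Adra1b (log2 change -1.05, adjusted p 0.0382) and Pde3a (-0.78, adjusted p 0.0413), where 743 genes (5.62%) were called in all. Neither left-out library belongs to the Des+/+ groups compared. In the fit of all libraries the changes were -1.12 and -0.86, uncalled. With only the libraries compared, 0 members and 2.25% of all genes were called. Gnas, Adcy6 and Pde4d had log2 changes between -0.02 and 0.05 in the fit of all libraries. Adra1a had one of -1.02 (SE 0.53, adjusted p 0.298).

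In Des-/- libraries, 0 of 9 members passed the edgeR test for swimming (0.0228% of all genes did), 0 had an unadjusted p under 0.05 (16.7% of all genes had) and DESeq2 called 0. Log2 changes ranged from -1.20 for Adra1a (SE 0.62, adjusted p 0.345) to 0.50 for Adrb1 (SE 0.58, adjusted p 0.687), and the groups overlapped for all 9 genes. The cardiomyocyte genes had positive changes (10 of 10, median 0.67, 0 called).

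The difference between the genotypes in their swimming change was tested as an interaction, for which 0 of 9 members and 0 of all genes passed (edgeR). At an unadjusted p under 0.05 there were 3 members, beside 16.3% of all genes. These were Adcy5 (1.05, SE 0.41, adjusted p 0.25), Pde3a (0.66, SE 0.30, adjusted p 0.301) and Adrb1 (1.78, SE 0.81, adjusted p 0.305), each on the log2 scale and positive where the level moved less downward with swimming in Des-/- mice. The value for Adra1b was 1.56 (SE 0.74, adjusted p 0.314). For no member was the genotype difference thus shown to differ between the conditions.

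The rest of the pathway was described from a list of 108 other genes in 10 roles, of which 101 passed the filter on low counts. Without swimming, 35 of 101 changed in Des-/- libraries, 12 higher and 23 lower, a share of 34.7% beside 32.0% of all genes, and the median log2 change was -0.05. After swimming 13 changed, 4 higher and 9 lower (12.9%, beside 10.6% of all genes). The number for the list as a whole was thus close to the background. The roles differed in their counts, and no role was tested as a set. Among all genes, 18.0% were lower and 14.0% higher without swimming, and 5.57% were lower after it. Scaled on the cardiomyocyte genes, 85 changed without swimming (83 higher, and Kcnj3 and Pln lower) beside 91.1% of all genes, and 0 after it beside 0.0304%. Genes named here beyond the 3 largest changes in each direction were chosen after their values had been seen.

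The M2 receptor opens the potassium channel formed by Kcnj3 and Kcnj5, and both fell without swimming. Kcnj3 was at 70.3 ± 14.1 CPM in Des+/+ and 9.09 ± 6.68 CPM in Des-/- non-swim libraries (SD, n = 3), a log2 change of -2.97 (SE 0.54, adjusted p 0.00235). Kcnj5 was at 85.6 ± 23.2 and 13.4 ± 9.58 CPM (SD, n = 3), a log2 change of -2.68 (SE 0.52, adjusted p 0.00348). After swimming Kcnj5 was lower as well (log2 change -1.95, SE 0.53, adjusted p 0.0402). With scaling on the cardiomyocyte genes, the changes without swimming were -1.11 for Kcnj3 (adjusted p 0.0268) and -0.72 for Kcnj5 (adjusted p 0.104).

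Among protein kinase A targets and phosphatase 1 inhibitors, 6 of 10 fell without swimming and 1 after it, and none rose. Of all genes, 18.0% and 5.57% fell. Pln, which encodes the calcium pump inhibitor phospholamban, was at 5777 ± 699 CPM in Des+/+ and 855 ± 568 CPM in Des-/- non-swim libraries (SD, n = 3), a log2 change of -2.76 (SE 0.48, adjusted p 0.00191). After swimming it was at 3214 ± 770 and 896 ± 338 CPM (SD, n = 3), a log2 change of -1.84 (SE 0.46, adjusted p 0.0302). The calcium channels Ryr2 and Cacna1c passed the test without swimming (log2 changes -2.27 and -2.05) and not after it, and the interaction did not pass for either (adjusted p 0.342 and 0.234). Relative to the cardiomyocyte genes, Pln stayed lower without swimming (log2 change -0.81, adjusted p 0.0287), Ryr2 had a change of -0.35 (adjusted p 0.369) and 4 of the 10 genes were higher.

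Of 13 protein kinase A and cyclic AMP effector genes, 8 fell and 1 rose without swimming, beside 18.0% and 14.0% of all genes. After swimming 4 fell, beside 5.57% of all genes. The catalytic subunit Prkaca was at 245 ± 33.6 CPM in Des+/+ and 96.2 ± 21.1 CPM in Des-/- non-swim libraries (SD, n = 3; log2 change -1.35, SE 0.21, adjusted p 0.00122). The kinase inhibitor Pkia fell too (log2 change -1.70, adjusted p 8.20e-04), so members with opposite action on the kinase were lower together. The cyclic AMP-binding Popeye genes Popdc2, Popdc3 and Bves had log2 changes of -2.04, -2.68 and -2.46. When scaled on the cardiomyocyte genes, the changes turned for Prkaca (0.88, adjusted p 0.0409), Pkia (0.56, adjusted p 0.210) and Popdc2 (0.09, adjusted p 0.820). Those of Popdc3 (-0.44, adjusted p 0.398) and Bves (-0.58, adjusted p 0.165) stayed negative and did not pass. With this scaling 8 of the 13 genes were called higher and 0 lower. The regulatory subunit Prkar2b rose (log2 change 1.26, adjusted p 0.0215). Akap6, an anchor of protein kinase A, was among 2 of 8 anchors that fell without swimming, and after swimming it was at 98.0 ± 20.7 CPM in Des+/+ and 38.6 ± 5.81 CPM in Des-/- libraries (SD, n = 3; log2 change -1.35, SE 0.33, adjusted p 0.0280).

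Of the other adenylyl cyclases, 3 of 6 rose and Adcy9 fell without swimming, beside 14.0% and 18.0% of all genes. All 6 were higher when scaled on the cardiomyocyte genes (Adcy9 1.49, adjusted p 0.00667). Adcy7 was at 27.6 ± 2.59 CPM in Des+/+ and 127 ± 90.1 CPM in Des-/- non-swim libraries (SD, n = 3; log2 change 2.2, SE 0.59, adjusted p 0.0157), and Adcy2 at 0.712 ± 0.433 and 3.79 ± 1.78 CPM (SD, n = 3; log2 change 2.37, SE 0.64, adjusted p 0.0166). For Adcy2 the Des+/+ non-swim libraries held only 2 to 12 reads, the lowest under the floor of 3, so the size of its change is uncertain. Arrb2, an arrestin that uncouples receptors, was at 21.4 ± 0.540 and 70.9 ± 51.8 CPM (SD, n = 3; log2 change 1.73, SE 0.41, adjusted p 0.00895), and was higher after swimming too (log2 change 1.46, adjusted p 0.0448). The SD of Adcy7 and Arrb2 was widest in the group that holds the library with the highest macrophage sum, and the part of macrophages in these values was not tested.

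Of 15 other phosphodiesterases, 2 rose and 3 fell without swimming, beside 14.0% and 18.0% of all genes. Pde9a, which degrades cyclic GMP, was at 8.01 ± 1.36 CPM in Des+/+ and 23.5 ± 3.99 CPM in Des-/- swim libraries (SD, n = 3; log2 change 1.55, SE 0.27, adjusted p 0.0124). Pde1a, a calmodulin-dependent phosphodiesterase, was at 14.0 ± 1.78 and 32.3 ± 5.97 CPM (SD, n = 3; log2 change 1.21, SE 0.24, adjusted p 0.0156). Of 20 other G protein subunits, 2 rose slightly without swimming (Gnb2 and Gnb4, log2 changes 0.38 and 0.42) and 0 changed after it. Of 11 α1 receptor effectors, 1 rose (Prkcd, log2 change 1.25, adjusted p 0.0285), and of 11 desensitisation genes 3 rose and 1 fell.

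**Figure D5:**
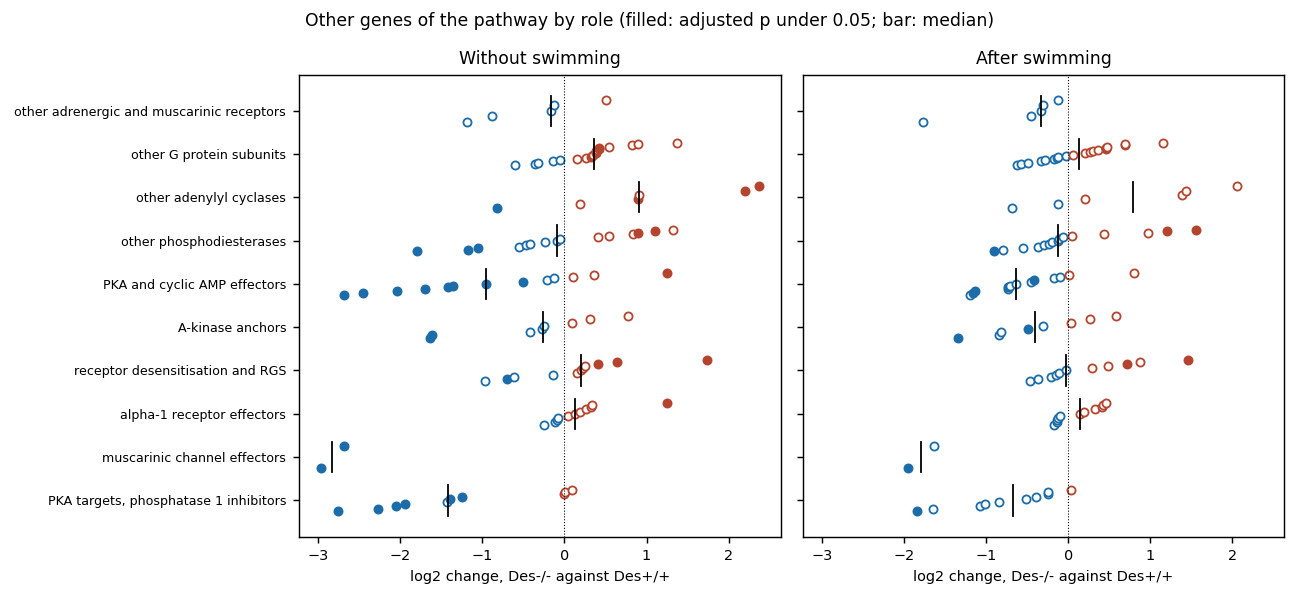
Log2 change in Des-/- against Des+/+ libraries of 101 other pathway genes, by role, without (left) and after swimming (right), with libraries scaled on all genes; points are genes, bars the median of a role, and filled points have an adjusted p under 0.05. Both muscarinic channel genes and 6 of 10 protein kinase A targets are filled and below 0 on the left, where 18.0% of all genes are called lower. Scaled on cardiomyocyte genes, 83 of the 101 genes are called higher there, as are most of the 91.1% of all genes called.

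None of the 5 other adrenergic and muscarinic receptors tested passed in either comparison. The count of Pde3a relative to Pde4d, again a pair chosen after the values were seen, was 26.0 to 27.5 in Des+/+ non-swim libraries, 11.05 to 19.4 in Des+/+ swim, 7.83 to 21.7 in Des-/- non-swim and 7.40 to 17.9 in Des-/- swim libraries, and so was highest in all 3 Des+/+ non-swim libraries.

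The genes whose levels followed each receptor most closely were found by the root mean square difference of centred log2 CPM over the 12 libraries, among 12157 genes with a mean of at least 20 counts. For Chrm2 these were Bche (0.105), which encodes butyrylcholinesterase, and Esrrg (0.203), a nuclear receptor of energy metabolism. Bche was at 71.4 ± 12.02, 35.5 ± 11.6, 15.9 ± 12.005 and 15.3 ± 2.86 CPM (SD, n = 3) in Des+/+ non-swim, Des+/+ swim, Des-/- non-swim and Des-/- swim libraries. For Adra1b the nearest were Kcnj3 (0.279) and Efnb3 (0.379), for Adrb1 Lsmem1 (0.405) and Opn4 (0.464), and for Adra1a Asb5 (0.507) and Pstpip2 (0.508). Within the 9 genes, Adcy5 and Pde3a were nearest to each other (0.286), as were Adcy6 and Gnas (0.224). Adrb1 and Chrm2 were nearest to Adcy5 (0.596 and 0.493), and Adra1a and Adra1b to Chrm2 (0.747 and 0.710). Pde4d was nearest to Gnas (0.467). The 12 libraries share their cell mix across genes, so these values describe likeness of pattern and nothing further.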

How the data were processed

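Per the labels, 12 libraries of poly-A RNA were grouped by genotype and swimming. The authors deposited raw counts of reads per gene, made with HISAT2 2.2.1, SAMtools 1.13 and HTSeq-count in reverse-strand mode on GRCm38 (mm10), with no normalisation. The labels name an unstranded kit and the methods a directional one. Of 93 opposite-strand overlaps where over 3000 reads would appear on the partner gene if strand were lost, 18 held under 1% of that number, which reads kept apart by strand can give. Reads not assigned to a gene were part of every file and were left out. In the methods, mice were not selected by sex, and sex is not given for each library.

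Counts were tested in R 4.3.3 with edgeR 4.0.16: filterByExpr, TMM scaling, 1 quasi-likelihood fit of 4 group means (8 residual degrees of freedom), 5 contrasts, Benjamini-Hochberg adjustment over 13158 genes, calls at an adjusted p under 0.05. SE was taken from the log2 change and its F statistic, and CPM used TMM-scaled totals. Positions and exon lengths came from GENCODE M21, and promoter windows from RefSeq. The simulated run for genotype without swimming (13158 genes) called 46 of 100 genes with a true log2 change of 1, 93 of 100 with one of 2, and 9 of 12958 with none. In it these 12958 genes were alike in all groups, and as many genes rose as fell. In the data 32.0% of all genes were called, so the simulated rates need not hold there. Alternatives were other scalings, no filter, DESeq2 1.42.0, only the libraries compared, the study's filter, a replicate block and leaving out libraries. The 9 genes, the pathway list and the marker lists were chosen with earlier results of these data known. Named pathway genes were the 3 largest called changes per contrast and direction with a mean of at least 20 counts. Intervals and floors cover counting error or the spread between pools only. Des-/- non-swim and Des-/- swim libraries of the same number correlated (every same-number correlation of deviations was above 0.1, at 0.316 to 0.602), and those of no other groups all did. Replicates 1 and 2 also correlated across numbers (0.299 and 0.292), and replicate 3 stood apart in both groups. A pairing by number was therefore not established. Chi-square per gene between replicates was at least 9.55, so no library was counted as a duplicate.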

Additional observations from a re-analysis of the deposited data

How the results depend on the processing

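Calls without swimming were kept for 6 members under DESeq2 size factors, upper-quartile scaling, no filter, DESeq2, only the libraries compared and the replicate block, and for 5 to 6 members when 1 library was left out. After swimming the 2 calls became 4 with DESeq2, 4 with only the libraries compared, 5 with the study's filter (unadjusted p of at most 0.05, absolute log2 change of at least 0.6, mean count of at least 20) and 0 with scaling on cardiomyocyte genes, and 0 to 4 when 1 library was left out (0 without Des+/+ swim replicate 1 or 3 or any Des-/- swim library, 4 without Des-/- non-swim replicate 2 or 3). The replicate block gave 3, adding Pde3a. Of all genes tested, 10.6% (1392) were called in the fit of all libraries and 8.66% with only the libraries compared. DESeq2 called 2276, which is 10.6% of the 21493 genes listed, as it was run without the filter. The share was 17.6% with the study's filter and 0.0304% with scaling on cardiomyocyte genes. With 1 library left out it was 0.55% (without Des+/+ swim replicate 3) to 16.1% (without Des-/- non-swim replicate 3). For the Des-/- swimming comparison, the replicate block changed no member call. Swimming in Des+/+ gave 1 member with DESeq2, 2 without both Des-/- replicate 3 libraries and 5 with the study's filter. There 3.68% of all genes listed, and 5.62% and 10.3% of all genes tested, were called. The interaction gave 3 with the study's filter (13.1% of all genes). Upper-quartile scaling moved the median of all genes to 0.14 without and 0.12 after swimming. The causes were not tested.

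For the pathway list, the 35 calls without swimming became 85 with scaling on cardiomyocyte genes and 25 to 37 when 1 library was left out. Of all genes, 32.0% were called in the fit of all libraries, and 91.1% and 19.5% to 34.4% in these settings. The 13 after swimming became 22 with DESeq2, 22 without both Des-/- replicate 3 libraries, 26 with the study's filter, 0 with scaling on cardiomyocyte genes and 0 to 21 when 1 library was left out (0 without Des+/+ swim replicate 3, 4, 5, 5 and 8 without Des+/+ swim replicate 1 and Des-/- swim replicates 1, 2 and 3, 21 without Des-/- non-swim replicate 3). After swimming, 11.9% of all genes were called without both Des-/- replicate 3 libraries, and the other shares are those given for the members. Swimming in Des+/+ gave 10 with DESeq2, 3 with only the libraries compared, 9 without both Des-/- replicate 3 libraries, 17 with the study's filter, and 0 to 1 when 1 library was left out. The shares of all genes were 3.68%, 2.25%, 5.62%, 10.3% and 0 to 1.17%. Swimming in Des-/- gave 1 with DESeq2 (1.55% of all genes) and 7 with the study's filter (8.6%). The interaction gave 2 (1.48%) and 12 (13.1%). Shares with DESeq2 are of all genes listed.

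Some log2 changes turned their sign. Scaling on cardiomyocyte genes gave, without swimming, Adrb1 0.19, Adra1a 0.37, Adcy5 0.36, Adcy6 1.76, Gnas 1.99, Pde3a 0.89 and Pde4d 2.21. After swimming it gave Adrb1 0.51, Adcy6 0.33, Gnas 0.39 and Pde4d 0.38. For swimming it gave Gnas 0.72 in Des+/+, and Adrb1 -0.30, Adra1b -0.10, Adcy5 -0.50, Adcy6 -0.63 and Gnas -0.89 in Des-/-. For the interaction it gave Adcy5 -0.45, Adcy6 -1.43, Gnas -1.61, Chrm2 -0.43 and Pde3a -0.98. The genotype change of Adrb1 after swimming was 0.0142 with upper-quartile scaling and 0.36 without both Des-/- replicate 3 libraries. Gnas with swimming in Des+/+ was 0.0162 without the filter, 0.05003 with only the libraries compared and 0.0574 without both Des-/- replicate 3 libraries. Without these libraries, Pde4d with swimming in Des-/- was 0.0335, and the interaction of Adra1a was 0.27 and that of Gnas -0.00542. With the replicate block, the interaction of Adra1a was 0.0224.

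Leaving out 1 library also turned signs of values that were not called. The ranges for genotype were -0.54 to 0.0693 for Pde4d without swimming and -0.61 to 0.59 for Adrb1 after it. For swimming in Des+/+ they were -0.0670 to 0.18 for Adcy6, -0.0864 to 0.0317 for Gnas and -0.24 to 0.30 for Pde4d. For swimming in Des-/- they were -0.0207 to 0.93 for Adrb1, -0.0590 to 1.05 for Adra1b, -0.0256 to 0.44 for Adcy6, -0.0526 to 0.10 for Gnas, -0.50 to 0.58 for Chrm2 and -0.38 to 0.25 for Pde4d. For the interaction they were -0.58 to 0.46 for Adra1a, -0.0649 to 0.40 for Adcy6, -0.0300 to 0.13 for Gnas and -0.42 to 0.19 for Pde4d. No called change turned its sign when 1 library was left out.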
